A study of Mus musculus with 6 samples.

Results

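H3K4me3 peaks of STHdhQ111 cells treated with loxapine were set beside those of the same cells treated with meclizine, using 2 of the 6 deposited peak lists. The pair was chosen because the loxapine and meclizine lists were the longest of the 4 compound lists and because the study placed the compounds in different sets, loxapine in Group A and meclizine in Group B. STHdhQ111 is a conditionally immortalised line of mouse striatal progenitors in which both copies of huntingtin carry an expanded glutamine repeat. Both cultures were kept for 24 h without serum, and each compound was given at 10 uM. The remaining lists came from STHdhQ111 cells with vehicle (Q111SST, not used here), STHdhQ7 cells with the wild-type repeat and vehicle (Q7SST), and STHdhQ111 cells with cyproheptadine (Group A) or DKI, a diacylglycerol kinase inhibitor (Group B). Those cells were also kept for 24 h without serum, and cyproheptadine and DKI were each given at 10 uM. All lists came from cultured lines rather than striatal tissue, and there was 1 list per condition, so no spread between replicates could be estimated and no test between compounds was made.

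H3K4me3, the trimethylated form of a lysine of histone H3, is laid down around active transcription start sites, mostly at promoters rich in CpG dinucleotides, and it flanks the nucleosome-depleted stretch where the transcription machinery sits. Weaker and narrower peaks lie far from genes, at enhancers, where factors such as AP-1 bind. Loxapine is a tricyclic antipsychotic that blocks dopamine and serotonin receptors, and meclizine is an antihistamine used against motion sickness that also lowers mitochondrial respiration. The study also examined autophagy and mitochondrial respiration, so genes of both processes are described with those of other functions.

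The loxapine list held 45564 peaks over 45.2 Mb and the meclizine list 38577 peaks over 40.1 Mb. For a fair comparison the 38577 strongest loxapine peaks by score were kept, which left out 6987 peaks with a median width of 412 bp. Strength was then expressed as a percentile among the 38577 peaks of a list, from 0 for the weakest to 100 for the strongest. The label of the line was checked on fixed markers of cell types. Of 9 neural progenitor markers, 7 had a promoter peak in both lists, among them Nes, Sox2, Vim and Dlx1. All 5 fibroblast markers were marked in both lists as well. The neuronal gene Rbfox3 and the striatal neuron genes Drd1, Drd2 and Tac1 were unmarked in both, as were all 6 liver and muscle markers. Of the other marker lists, 3 of 5 neuronal, 2 of 7 striatal neuron and 4 of 5 astrocyte genes were marked in both, 1 of 5 microglial and 1 of 4 endothelial genes, and 0 of 5 oligodendrocyte genes. Penk, Mbp and Tek were marked with meclizine only and P2ry12 with loxapine only.

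Sequences of 2 kinds of site at which the lists differed, chosen with the values known, are printed here from the GRCm38 genome of RefSeq. The first set holds the 250 bases upstream of 3 start sites at which loxapine had 2 separate peaks while 1 meclizine peak ran across. They had the highest-scoring joined meclizine peaks among the promoters read for printing, with this stretch inside the loxapine gap and clear of exons, and they were chosen with their values known. CG dinucleotides are in capitals. Med13 encodes a Mediator subunit, Usf3 a helix-loop-helix factor and Ccdc88a the actin-binding protein girdin.
Med13 promoter, chr11:86357603-86357852, minus strand: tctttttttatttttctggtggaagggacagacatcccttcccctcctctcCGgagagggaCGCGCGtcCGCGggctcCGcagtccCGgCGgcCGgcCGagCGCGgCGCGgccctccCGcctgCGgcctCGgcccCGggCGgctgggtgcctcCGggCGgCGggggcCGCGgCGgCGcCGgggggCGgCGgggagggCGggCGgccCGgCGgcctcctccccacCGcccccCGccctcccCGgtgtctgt
Usf3 promoter, chr16:44172996-44173245, plus strand: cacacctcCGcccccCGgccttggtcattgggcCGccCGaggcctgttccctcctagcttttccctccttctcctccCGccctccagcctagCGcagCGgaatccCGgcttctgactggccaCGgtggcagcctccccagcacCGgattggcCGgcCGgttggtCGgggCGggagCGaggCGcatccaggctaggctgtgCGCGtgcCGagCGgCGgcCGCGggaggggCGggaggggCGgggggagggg
Ccdc88a promoter, chr11:29373408-29373657, plus strand: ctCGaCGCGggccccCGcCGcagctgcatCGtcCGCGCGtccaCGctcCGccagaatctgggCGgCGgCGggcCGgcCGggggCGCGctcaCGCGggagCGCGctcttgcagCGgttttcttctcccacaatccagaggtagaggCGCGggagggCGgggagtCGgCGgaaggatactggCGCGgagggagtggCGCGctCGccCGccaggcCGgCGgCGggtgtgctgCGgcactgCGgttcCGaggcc
These stretches were 79.6%, 74.4% and 76.0% GC and held 37, 25 and 40 CG dinucleotides. At Med13 the loxapine peaks on each side had scores of 286 and 46 and stood 866 bp apart, and the meclizine peak that joined them had a score of 268. At Usf3 the loxapine peaks scored 323 and 68 with a gap of 837 bp, under a meclizine peak of 225. At Ccdc88a they scored 55 and 214 with a gap of 861 bp, under a meclizine peak of 193.

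The second set holds the central 200 bases of distal peaks, those over 5 kb from every annotated start. The first 3 had the largest percentile excess with loxapine among distal peaks that matched one to one and held the AP-1 letters TGANTCA, which are in capitals. The last 3 had the largest excess with meclizine among those with the GC-box letters GGGCGG on either strand, in capitals. Windows with exons were left out.
distal peak nearest Lims1, chr10:58401988-58402187, plus strand: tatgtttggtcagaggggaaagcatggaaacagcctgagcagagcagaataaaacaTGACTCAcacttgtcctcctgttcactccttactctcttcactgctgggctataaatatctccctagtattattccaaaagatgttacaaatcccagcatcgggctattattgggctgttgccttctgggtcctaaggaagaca
distal peak nearest Cdk5rap3, chr11:96896052-96896251, plus strand: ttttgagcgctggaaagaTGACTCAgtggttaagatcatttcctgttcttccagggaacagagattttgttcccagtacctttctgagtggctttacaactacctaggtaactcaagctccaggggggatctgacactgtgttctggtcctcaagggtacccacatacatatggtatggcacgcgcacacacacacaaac
distal peak nearest Rab3gap2, chr1:185218031-185218230, plus strand: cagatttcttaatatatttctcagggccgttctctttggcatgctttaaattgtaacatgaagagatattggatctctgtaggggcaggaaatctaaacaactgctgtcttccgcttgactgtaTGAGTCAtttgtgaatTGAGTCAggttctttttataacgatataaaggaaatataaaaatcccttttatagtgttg
distal peak nearest Wdr26, chr1:181256523-181256722, plus strand: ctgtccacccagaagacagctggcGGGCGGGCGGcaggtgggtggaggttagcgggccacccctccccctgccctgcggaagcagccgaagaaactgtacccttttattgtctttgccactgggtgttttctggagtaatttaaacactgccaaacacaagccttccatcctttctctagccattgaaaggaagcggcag
distal peak nearest Bcorl1, chrX:48409965-48410164, plus strand: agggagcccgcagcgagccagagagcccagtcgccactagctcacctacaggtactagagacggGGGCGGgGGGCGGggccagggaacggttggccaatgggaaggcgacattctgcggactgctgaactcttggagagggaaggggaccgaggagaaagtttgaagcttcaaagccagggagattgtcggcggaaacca
distal peak nearest Tgfbr2, chr9:116375871-116376070, plus strand: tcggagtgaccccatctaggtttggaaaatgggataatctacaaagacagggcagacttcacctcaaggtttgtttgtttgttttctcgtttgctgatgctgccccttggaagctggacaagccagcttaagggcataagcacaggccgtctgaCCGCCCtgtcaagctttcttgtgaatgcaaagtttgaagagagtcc
The peak in an intron of Lims1, an adhesion adaptor gene, was at percentile 71.6 with loxapine and 4.42 with meclizine. An intergenic peak 12507 bp from its nearest coding start, that of Cdk5rap3, stood at percentile 84.4 with loxapine and 21.8 with meclizine. The third, in Rab3gap2, held 2 AP-1 matches and was at 65.1 and 3.03. In the other direction, an intergenic peak nearest Wdr26 was at 0.889 with loxapine and 58.8 with meclizine, one nearest Bcorl1 at 34.7 and 89.9, and one nearest Tgfbr2, a TGF beta receptor gene 200511 bp away, at 4.80 and 59.4. They were picked for these differences, which are therefore descriptions of the examples and support nothing further.

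Most of the mark was shared. Of the 38577 loxapine peaks, 86.4% (95% Wilson interval 86.1% to 86.7%, counting error only) overlapped a meclizine peak, and 85.2% (84.8% to 85.5%) of the meclizine peaks overlapped a loxapine peak. The base pairs in both lists were 0.693 of those in either. Peaks within 1 kb of any start were found in the other list more often than distal ones, at 97.0% against 79.4% for loxapine and 92.8% against 80.2% for meclizine. Peaks without a partner were weak, with median percentiles of 16.0 for loxapine and 15.6 for meclizine. Distal peaks made up 48.3% of the loxapine list and 48.1% of the meclizine list. Where peaks matched one to one, at 32016 sites, loxapine peaks were the wider at 63.0%, and the median ratio of widths was 1.06 (quartiles 0.934 and 1.23). The narrowest peak was 195 bp in the loxapine list and 203 bp in the meclizine list.

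The position of the mark relative to the start differed between the compounds. Meclizine peaks covered the start itself more often, and loxapine peaks reached further into the gene. Over 44614 coding starts with a peak within 1 kb in both equal-sized lists, the start base lay in a peak at 78.3% with loxapine and at 84.9% with meclizine. Of these starts, 3582 were covered with meclizine only and 634 with loxapine only. At 1 kb into the gene the order was reversed, with 59.7% of positions covered with loxapine and 53.3% with meclizine, and the gap was widest 1100 bp into the gene, at 6.80 percentage points. At 1 kb upstream the shares were 29.9% and 28.2%. Starts of 1 gene often share a peak, so they are not separate measurements.

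**Figure D1:**
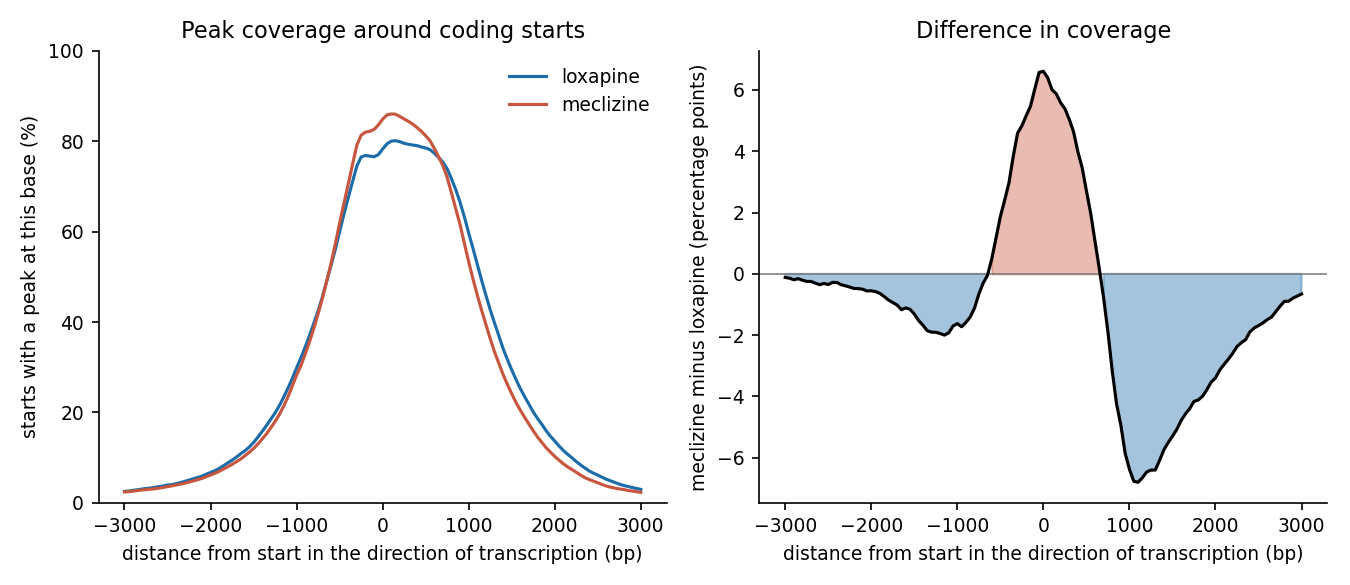
Peak coverage around 44614 protein-coding starts that had a peak within 1 kb in both equal-sized lists. The left panel plots the share of starts (%) with a peak at each distance (bp, positive into the gene) for loxapine (blue) and meclizine (red), and the right panel plots meclizine minus loxapine in percentage points; meclizine was 6.61 points higher at the start and 6.80 points lower at 1100 bp.

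At some promoters loxapine had a peak on each side of the start and nothing over it. In the whole lists, 651 of 38577 meclizine peaks (1.69%) each spanned 2 or more loxapine peaks. Of the 653 gaps between those loxapine peaks, 524 (80.2%) contained a protein-coding start, at 584 genes. The median gap with a start was 902 bp (quartiles 834 and 1030). The reverse was rarer: 121 of 45564 loxapine peaks (0.266%) spanned 2 or more meclizine peaks, and 18 of those 121 gaps (14.9%) contained a start. The 584 genes included Rad21, the cohesin subunit, Nfyb, a subunit of the CCAAT-binding factor, Hsf2, a heat shock factor, and Trim24, a chromatin reader. Among the 18 of the mirror set were Ccnd1, which encodes cyclin D1, Foxp1, a striatal transcription factor gene, Etv5, and Kansl1. These 8 genes were chosen after their values were seen. At Rad21 the meclizine peak scored 260 over loxapine peaks of 219 and 100 that lay 830 bp apart, and at Ccnd1 a loxapine peak of 54 ran over meclizine peaks of 26 and 62 that lay 1114 bp apart.

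Gaps over starts were rich in GC in both directions. The central 300 bases of the 524 gaps were 74.7% GC at the median (quartiles 70.6% and 77.7%), with a CpG observed over expected ratio of 0.958, against 57.0% GC and a ratio of 0.624 at the 13372 one-to-one peaks within 1 kb of a start. The 18 gaps of the mirror set were 69.5% GC, with a ratio of 0.829. Both sets of gaps were selected to hold a start, whereas the one-to-one peaks need only lie within 1 kb of one. The sets therefore differ in position as well as in sequence. The printed upstream stretches of Med13, Usf3 and Ccdc88a lie in such gaps. The part of base composition in the result was not tested. The other lists also differed at the same gaps. In Q7SST, the wild-type vehicle cells, 340 of the 524 gaps (64.9%, 60.7% to 68.9%) were spanned by 1 peak, in the DKI list 171 (32.6%, 28.8% to 36.8%) and in the cyproheptadine list 102 (19.5%, 16.3% to 23.1%). The 18 gaps of the mirror set were spanned in the same order, 11 in Q7SST, 6 with DKI and 2 with cyproheptadine. Those lists held 38392, 30758 and 33721 peaks.

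At promoters, a gene counted as marked if it had a peak no more than 1 kb from a GENCODE vM21 start. Of 21911 protein-coding genes, 12945 were marked in either equal-sized list and 12372 in both. With meclizine only, 467 were marked (3.61% of those marked in either list), and with loxapine only, 106 (0.819%). Meclizine had more such genes under each alternative tried, from 1.52 times as many in whole lists to 8.57 times as many when the peak had to cover the start. These peaks were weak, at median percentiles of 20.2 and 16.0. Of the 467, 180 had a peak within 1 kb in the whole loxapine list, at or below the score of 19 at which the equal-sized list ended, 98 had one between 1 and 5 kb away, and 189 had none within 5 kb. Of the 106, 46 had a meclizine peak between 1 and 5 kb away and 60 had none within 5 kb.

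The 10 strongest meclizine-only promoters with no loxapine peak within 5 kb were those of Kcp, Gm4353, Agtr1a, Rundc3a, Tpm3-rs7, Ccdc180, Esam, Gm4737, Pgbd5 and Tagln3. Kcp encodes a secreted BMP modulator, and its 435-bp peak at chr6:29484872-29485306, over the start, coding exon and intron, stood at percentile 69.5. Agtr1a, the angiotensin II receptor, had a 311-bp peak over its start at percentile 56.7. Esam, an endothelial adhesion molecule, was at 52.9, and the neuronal genes Rundc3a and Tagln3 were at 56.1 and 52.2. All 10 also had a peak within 1 kb of a start in Q7SST, against 4 of 10 with DKI and 1 of 10 with cyproheptadine. Tpm3-rs7 is named as a copy of Tpm3, so reads there may come from another locus and its call is uncertain, and the same holds for the predicted genes Gm4353 and Gm4737. Peaks at 7 of the 10 were narrower than 300 bp.

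The 10 strongest loxapine-only promoters by the same rule were those of Klhl41, 9130230L23Rik, Trpv3, Klrd1, Btg1-ps2, Catip, Sh2d1b2, Cpb1, Spaca7 and Bex6. They stood lower in their list, between percentile 27.1 and 37.1. Klhl41 is a muscle gene, Trpv3 a heat-activated channel of skin, Klrd1 and Sh2d1b2 are natural killer cell genes, Cpb1 is a pancreatic carboxypeptidase gene and Spaca7 a sperm gene. None of the 10 had a peak within 1 kb of a start in Q7SST or with DKI, and 2 of the 10, Klrd1 and Catip, had one with cyproheptadine. Over all promoters without a peak of the other list within 5 kb, 130 of the 189 meclizine-only genes (68.8%) and 24 of the 60 loxapine-only genes (40.0%) were marked in Q7SST. With DKI the counts were 28 of 189 (14.8%) and 4 of 60 (6.67%), and with cyproheptadine 9 of 189 (4.76%) and 9 of 60. Btg1-ps2 is named as a copy of Btg1, and its call is uncertain.

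Relative strength agreed closely at most promoters marked in both lists, with 93.9% of the 12372 within 20 percentile points and a median difference, loxapine minus meclizine, of -1.27 points. A difference of 20 or more points was reached at 155 promoters in favour of loxapine (1.25%) and at 600 in favour of meclizine (4.85%). The strongest peaks matched one to one at 99 of the 155 and at 565 of the 600. Median widths at the 155 were 901 bp with loxapine and 1412 bp with meclizine, and at the 600 they were 1034.5 and 998.5 bp. Many of the 155 thus set unlike intervals side by side. The split of 155 and 600 depended on the scale. With percentiles in the whole lists it was 321 (2.56%) against 246 (1.96%), and with percentiles among the shared promoters alone it was 949 (7.67%) against 855 (6.91%), so the order of the counts depended on the scale. All 155 and all 600 kept their direction on both scales. In whole lists the 155 could not lose theirs, because the added weaker peaks raise loxapine percentiles and the meclizine list is unchanged. On the shared-promoter scale, 94 of the 155 and 170 of the 600 remained past 20 points. Of the 600, 80 remained so on both scales at once. GC was read at the centre of the loxapine peak for the 155 and of the meclizine peak for the 600. The medians were 47.7% and 61.3%, beside 60.3% at all shared promoters. Whether this contrast reflects where the peaks of each list lie was not tested.

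The promoter with the largest excess in loxapine was that of Col10a1, the collagen X gene of hypertrophic cartilage, which lies within Nt5dc1. Its loxapine peak at chr10:34389391-34390303, over the start and intron, had a score of 104 and percentile 77.7, and the meclizine peak there had a score of 20 and percentile 10.8. Epha7, an ephrin receptor gene of axon guidance, was at 63.4 with loxapine and 14.0 with meclizine, although the meclizine peak was 2858 bp wide and the loxapine peak 618 bp. Gtsf1 and Tdrd9, genes of the piRNA pathway in the germ line, were at 86.7 against 40.1 and 70.7 against 18.7. Olfr1423, an olfactory receptor gene, stood at 48.7 against 1.57. Prkg2, a cGMP-dependent kinase gene, was at 46.1 against 1.57, and Gna12, a G protein subunit gene, at 79.5 against 39.1. Duoxa1, the maturation factor of a dual oxidase, was at 51.4 against 7.46. For Pde4a, Prkg2 and Duoxa1 the strongest peaks of the lists lay at different starts of the gene, and at Gna12 and Aamdc they did not match one to one, with 2 loxapine peaks under a joined meclizine peak at Gna12. For Pde4a, Tdrd9 and Aamdc the excess was gone when peaks up to 5 kb from a start were allowed (-14.0, -13.9 and -2.63 points). On the shared-promoter scale Olfr1423, Prkg2 and Duoxa1 fell under 20 points, at 11.8, 10.3 and 13.2.

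**Figure D2:**
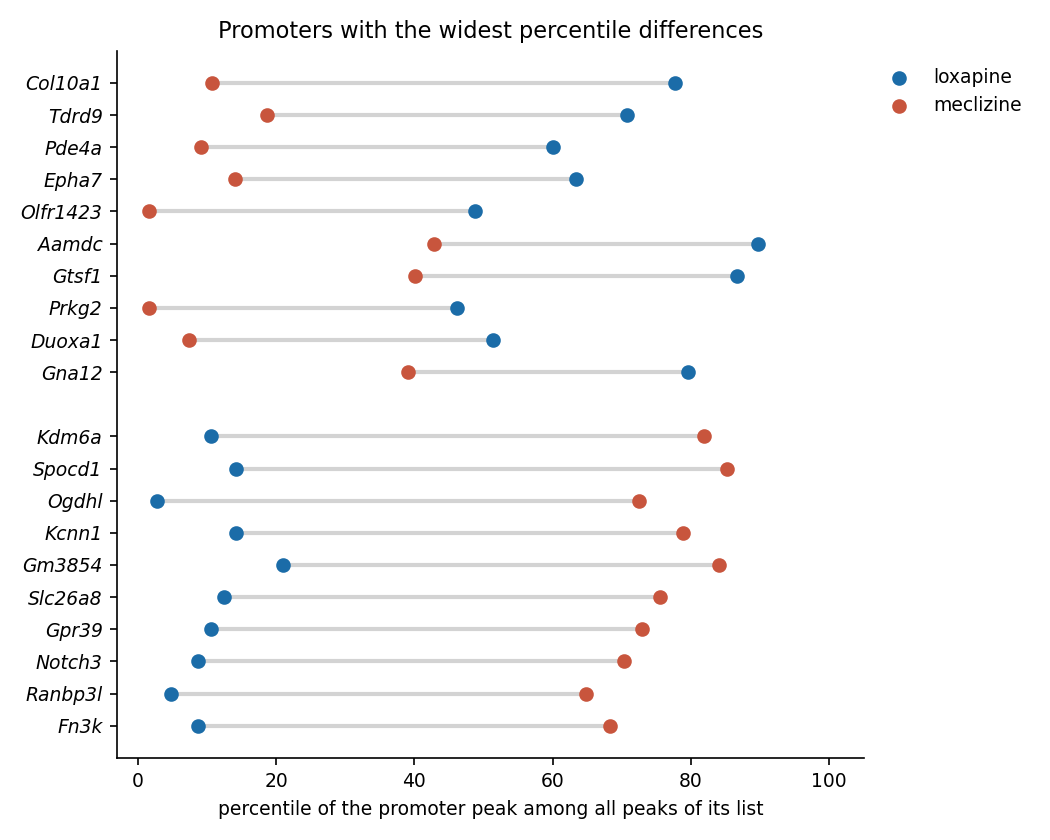
Percentile of the promoter peak among all 38577 peaks of its list (horizontal axis, 0 weakest to 100 strongest) for the 10 genes with the largest difference in each direction, with loxapine in blue, meclizine in red and a grey line joining them. Col10a1 stood at 77.7 with loxapine and 10.8 with meclizine, and Spocd1 at 14.2 and 85.2.

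In favour of meclizine, the largest differences that held up with a 5 kb window were at Spocd1, Ogdhl, Gm3854, Notch3, Ranbp3l and Fn3k. Spocd1, which directs DNA methylation to transposons in the male germ line, was at percentile 14.2 with loxapine and 85.2 with meclizine, from a 387-bp peak at chr4:129928226-129928612, upstream of the start. Ogdhl, a mitochondrial oxoglutarate dehydrogenase subunit gene, was at 2.78 and 72.6. Its peak over the start and intron was 902 bp wide with loxapine and 361 bp with meclizine. Notch3, a Notch receptor gene, was at 8.71 and 70.3 from an intronic peak near its start, Ranbp3l, an export factor for Smad proteins, at 4.80 and 64.9 (-19.8 points on the shared-promoter scale), and Fn3k, a kinase that repairs glycated proteins, at 8.71 and 68.3. The retrogene-like Gm3854 was at 21.0 and 84.1, and its call is uncertain. Kdm6a, the H3K27 demethylase on the X chromosome, had the widest difference of all, 10.6 against 81.9, but the loxapine list held a stronger peak between 1 and 5 kb from a start, and with 5 kb the difference was 2.24 points. The differences at Kcnn1, Slc26a8 and Gpr39 also fell within 20 points with the wider window, to -6.28, 10.9 and -12.2.

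Width singled out other genes. Among one-to-one promoter peaks the largest excesses of loxapine were at Cdkn1b, which encodes the cell cycle inhibitor p27, at 4958 against 2331 bp, Oxsr1, a stress-responsive kinase gene, at 4769 against 2558 bp, Sgk1, a serum- and glucocorticoid-induced kinase gene, at 3742 against 1582 bp, Ccl2, a chemokine gene, at 2941 against 987 bp, and Tut7, a uridylyl transferase gene, at 3688 against 1745 bp. Sgk1 was wider with loxapine but stronger with meclizine, at percentile 51.4 against 84.7. With meclizine the widest excesses were at Epha7, at Hoxc11 with 2200 against 372 bp, at the RNA effector gene Srrt with 3784 against 1978 bp, at the sulfotransferase gene Gal3st1 with 2122 against 388 bp, and at the growth factor gene Fgf18 with 2114 against 404 bp. At Hoxc11 and Fgf18 the narrow loxapine peak lay within the span of the meclizine peak, and at Gal3st1 it overlapped the upstream end. The whole loxapine list had a further peak at Fgf18, of score 13, which the equal-sized list left out, and the meclizine peak spanned both across a gap of 855 bp.

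All 32 autophagy genes were marked in both lists and 0 of 32 differed by 20 points, beside 1.25% of all promoters with loxapine and 4.85% with meclizine, with differences from -11.4 to 9.65 and a median of 1.24, beside -1.27 over all shared promoters. With percentiles among shared promoters alone, which spread strong promoters further apart, 3 of 32 (Sqstm1, Ulk2 and Wipi1) passed 20 points with loxapine and 2 (Nbr1 and Pik3r4) with meclizine, beside 7.67% and 6.91% of all shared promoters, which are shares close to those of the list. Of the 32, 21 were higher with loxapine, against 5106 of 12372 promoters (41.3%). The largest were Wipi1, a phosphoinositide-binding gene of the forming autophagosome, at 79.2 against 69.5, Atg4b, a protease of the LC3 proteins, at 74.4 against 66.2 for a loxapine flank peak under a joined meclizine peak, and Ulk2, an initiating kinase, at 98.2 against 90.5. The cargo receptor gene Sqstm1 was at 96.8 and 89.2, and Map1lc3b at 95.2 in both. Pik3r4, a subunit of the lipid kinase complex, was at 78.5 with loxapine and 89.9 with meclizine. The lysosome list, by contrast, had a median of -2.03 over 29 genes, and 1 of 29 was past 20 points, in favour of meclizine, and 0 of 29 on the shared-promoter scale.

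Of 83 genes of electron transport and ATP synthase, 77 were marked in both lists and none in 1 list only. Their median difference was -0.970, and 1 of 77 passed 20 points in each direction, or 4 with loxapine and 3 with meclizine on the shared-promoter scale. The shares over all promoters, with loxapine and with meclizine, were 1.25% and 4.85% in equal-sized lists and 7.67% and 6.91% on the shared-promoter scale. In glycolysis and pyruvate entry the median of 31 genes was -4.74, with Pkm, the pyruvate kinase gene, past 20 points in favour of loxapine, where loxapine had 2 peaks, 1692 bp apart, under a joined meclizine peak, and Pdk4, a kinase that inhibits pyruvate dehydrogenase, and the glucose transporter gene Slc2a3 in favour of meclizine. Aldoc, the brain aldolase gene, was marked with meclizine only. Meclizine is known to act on phosphatidylethanolamine synthesis, and all 18 genes of phosphatidylethanolamine and phosphatidylcholine synthesis were marked in both lists. Pcyt2, which encodes the ethanolamine-phosphate enzyme that meclizine is known to inhibit, was at percentile 90.4 with loxapine and 97.2 with meclizine, Etnk1, an ethanolamine kinase gene with 2 loxapine peaks under a joined meclizine peak, at 98.2 and 91.5, and the choline kinase gene Chka at 49.6 and 61.0. Only Phospho1, a phosphocholine phosphatase gene, passed 20 points in equal-sized lists, at 28.5 against 49.4, and on the shared-promoter scale Chpt1 passed with loxapine and Lpin1 with meclizine. Sterol genes had a median of -2.73 over 31, with the cholesterol exporter gene Abca1 past 20 points in favour of meclizine, and 1 with loxapine and 6 with meclizine were past it on the shared-promoter scale.

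**Figure D3:**
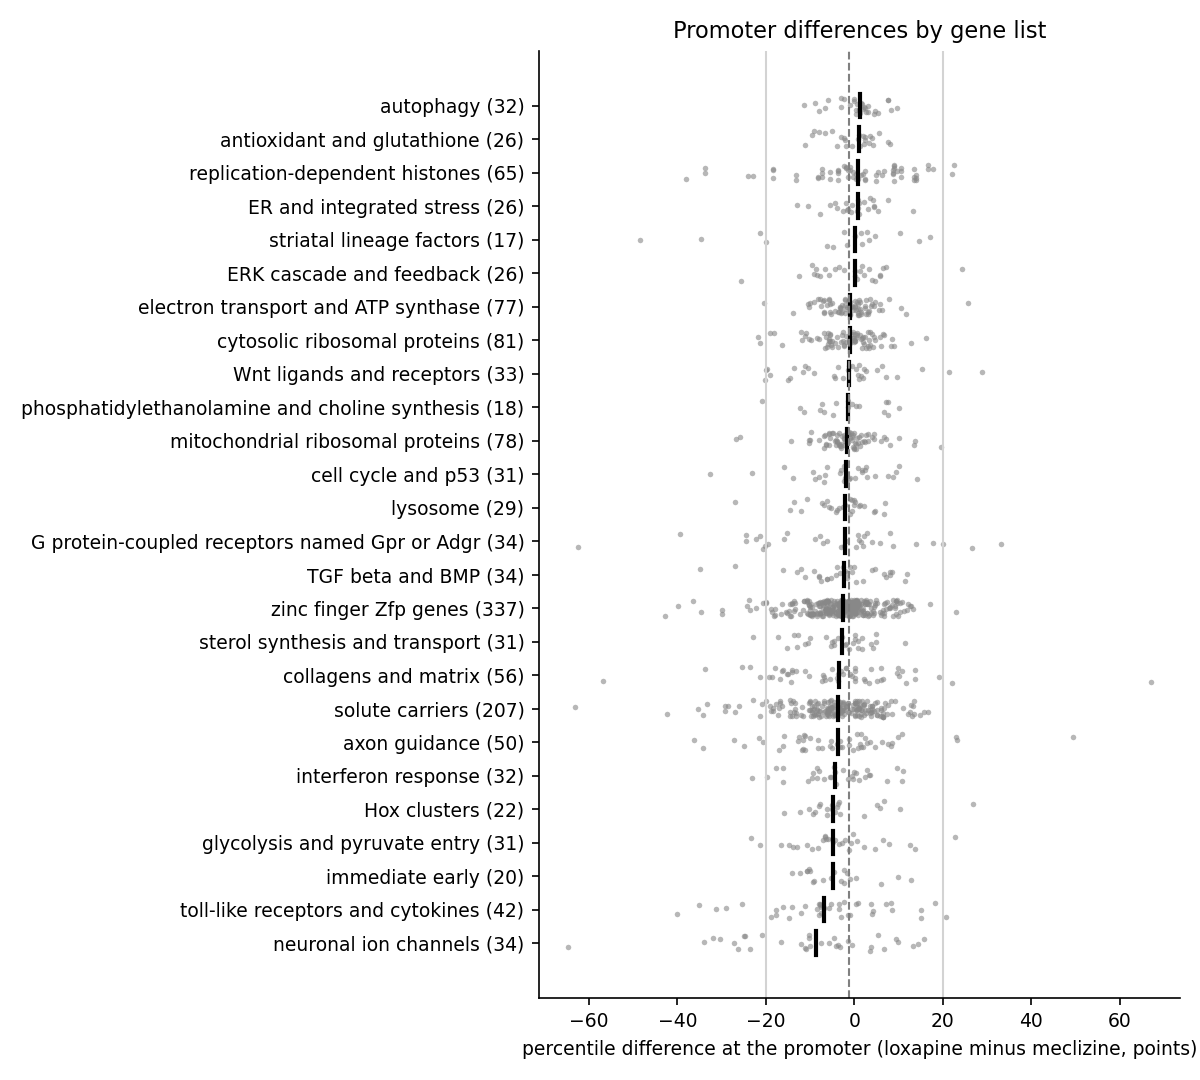
Percentile difference at the promoter (loxapine minus meclizine, points) for members marked in both lists, in the gene lists with 15 or more such members, given in parentheses. Grey points are genes, black bars list medians, the dashed line the median of all shared promoters (-1.27) and the pale lines 20 points; autophagy lay highest at 1.24 and neuronal ion channels lowest at -8.77.

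The receptors that the compounds are known to bind were mostly unmarked. Of 32 dopamine, serotonin, histamine, muscarinic and adrenergic receptor genes, 24 had no promoter peak in either list, among them all of Drd1 to Drd5 and Htr2c. Hrh1, the histamine receptor that meclizine blocks, was marked at percentile 85.0 with loxapine and 81.2 with meclizine. Adra1b, Adra2a and Adra2b were marked in both lists within 10 points. Htr1b, a serotonin receptor gene, was at 6.78 with loxapine and 40.1 with meclizine. It was the 1 of 5 receptor genes marked in both lists that passed 20 points, beside 4.85% of all promoters with meclizine. On the shared-promoter scale 0 of 5 passed. Htr1d was marked with loxapine only, at 14.2, and Htr2a and Chrm2 with meclizine only, at 17.1 and 5.91, all from peaks at most 311 bp wide. Of all promoters marked in either list, 0.819% were marked with loxapine only and 3.61% with meclizine only.

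Neuronal ion channel genes past the threshold were all in favour of meclizine. Of 136 neuronal ion channel genes, 34 were marked in both lists, and 10 of these 34 (29.4%, beside 4.85% of all promoters) were past 20 points in favour of meclizine and 0 in favour of loxapine. They were Cacna1b, Cacna1c, Cacna1g and Cacnb2 of calcium channels, Kcna4, Kcne3, Kcnj2, Kcnn1 and Kcnn4 of potassium channels, and Hcn4, a pacemaker channel gene. At Kcnn1 the strongest peaks did not match one to one, and its difference was -6.28 points with a 5 kb window. A further 8 were marked with meclizine only and 3 with loxapine only, beside 3.61% and 0.819% of all promoters marked in either list, and 4 of the 8, Kcnd1, Kcnq5, Cacng7 and Kcnmb4, had a weaker loxapine peak within 1 kb in the whole list. The list's median was -8.77, or -2.94 with percentiles among shared promoters alone, where 9 of 34 passed 20 points with meclizine and 0 with loxapine. In the list of G protein-coupled receptors named Gpr or Adgr, 8 of 34 were past 20 points in favour of meclizine and 3 in favour of loxapine, and another 8 were marked with meclizine only. On the shared-promoter scale the split of that list was 2 and 2. Among 17 marked striatal lineage factors, Dlx2, Dlx5, Foxp2 and Zfp503 were past 20 points in favour of meclizine and none in favour of loxapine, but on the shared-promoter scale only Zfp503 remained and Dlx6 passed with loxapine. Sox2 and Gli3, factors of neural progenitors, were at 41.3 against 71.8 and 46.1 against 68.3, with 2 loxapine peaks under a joined meclizine peak at Gli3, and Nes, an intermediate filament gene of the same cells, went the other way at 62.8 against 37.0. On the shared-promoter scale Sox2 alone of the 7 marked progenitor markers was past 20 points. Axon guidance genes were past 20 points in both directions, 3 with loxapine and 6 with meclizine of 50, and 3 each on the shared-promoter scale. The smaller lists of glutamate and GABA receptors and of clustered protocadherins had medians of -13.3 over 7 genes and -12.1 over 8, which were -5.95 and -3.64 on the shared-promoter scale.

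Immediate early genes are the first to respond to stimuli. Of 20 marked in both lists, none passed 20 points, beside 1.25% and 4.85% of all promoters, and 16 were higher with meclizine, beside 58.7% of all shared promoters, with a median of -4.91, or -1.70 among shared promoters alone, where Maff passed 20 points. Fos was at 60.8 with loxapine and 67.9 with meclizine, Egr1 at 63.4 and 74.1, Myc at 51.4 and 60.4 and Maff at 78.8 and 92.8. Nr4a3, an orphan nuclear receptor gene, stood at 68.2 and 55.5, with 2 loxapine peaks under a joined meclizine peak. Jun, the AP-1 subunit gene, was at 47.9 and 57.8, and its peak was 2430 bp wide with loxapine and 3848 bp with meclizine. None of the 26 genes of the ER and integrated stress response and none of the 26 antioxidant genes passed 20 points, with medians of 0.719 and 0.949, and on the shared-promoter scale 1 of each passed with loxapine. In the interferon list, with a median of -4.32 over 32 genes, Psmb8, an immunoproteasome subunit gene, was the 1 gene past 20 points, and on the shared-promoter scale 2 passed with loxapine and 7 with meclizine, beside 7.67% and 6.91% of all shared promoters.

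The other lists are given as members past 20 points in equal-sized lists and then on the shared-promoter scale, beside backgrounds of 1.25% with loxapine and 4.85% with meclizine on the first and of 7.67% and 6.91% on the second. Replication-dependent histone genes changed order with the scale, from 2 with loxapine and 5 with meclizine of 65 to 12 and 3. Solute carrier genes went from 0 and 14 of 207 to 10 and 12, and Zfp zinc finger genes from 1 and 13 of 337 to 17 and 36. Collagen and matrix genes went from 2 and 5 of 56 to 4 and 3, and cytokine and toll-like receptor genes from 1 and 5 of 42 to 3 and 3. The counts of these families thus rested on the scale. Genes of cytosolic ribosomal proteins went from 0 and 2 of 81 to 4 and 4, and those of mitochondrial ribosomal proteins from 0 and 2 of 78 to 4 and 7. Hox genes went from 1 and 0 of 22 to 0 and 0, Wnt genes from 2 and 1 of 33 to 0 and 0, and TGF beta and BMP genes from 0 and 2 of 34 to 2 and 0. Cell cycle and p53 genes went from 0 and 2 of 31 to 1 and 1, and genes of the ERK cascade from 1 and 1 of 26 to 1 and 2. Olfactory receptors, vomeronasal receptors and keratins were mostly unmarked, with 7 of 1092, 3 of 326 and 5 of 49 marked in both lists.

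Strength moved with base composition at distal peaks. The one-to-one peaks were split into 5 bins of about equal size by the GC content of their central 300 bases. In the bin with the least GC, up to 40.0%, loxapine peaks stood higher by a median of 3.80 points, and in the 2 bins above 50% meclizine peaks stood higher, with medians of -3.20 and -2.98. Among distal peaks the range was wider, from 4.43 points to -10.2 over 325 peaks in the most GC-rich bin. Peaks within 1 kb of a start ran from 1.86 to -2.63. In all, 2030 of 14650 one-to-one distal peaks (13.9%) were 20 or more points higher with loxapine and 1703 (11.6%) with meclizine.

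**Figure D4:**
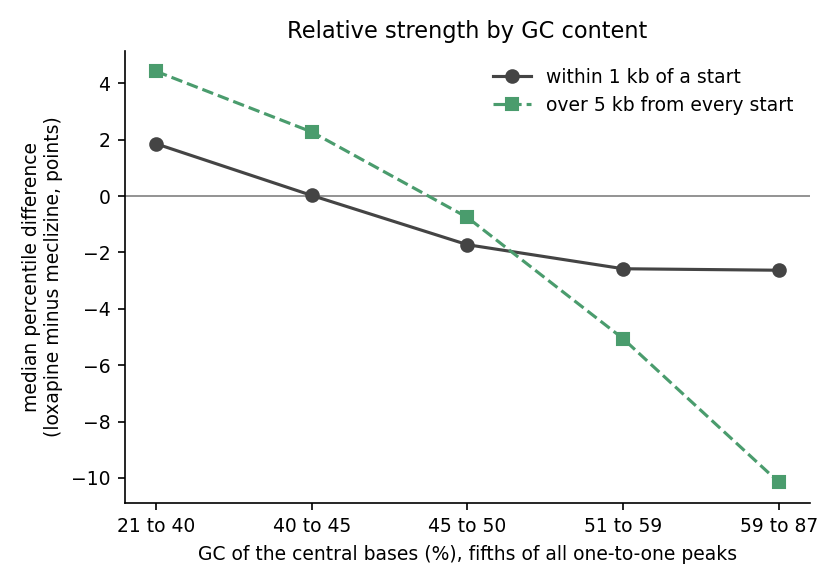
Median percentile difference (loxapine minus meclizine, points) at one-to-one peaks in 5 bins of GC content (%) of their central 300 bases, for peaks within 1 kb of a start (black circles) and over 5 kb from every start (green squares). Distal peaks fell from 4.43 to -10.2 points and peaks near starts from 1.86 to -2.63.

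Short motifs were counted in the distal peaks. The AP-1 letters TGANTCA, which read the same on both strands, were in the central 300 bases of 45.5% of the distal peaks that were 20 points higher with loxapine, of 31.2% of those 20 points higher with meclizine and of 38.8% of those within 20 points. The GC-box letters GGGCGG, on either strand, were in 2.86%, 10.2% and 6.86%. A CTCF motif core was in 1.23%, 3.53% and 1.81%, and the TEAD letters GGAATG in 28.8%, 21.5% and 24.2%. A RUNX motif core was in 27.7%, 22.3% and 25.4%, an ETS core in 0.444%, 2.53% and 1.44%, an NRF1 core in 0, 0.176% and 0.120%, and a CRE in 0.542%, 0.412% and 0.331%. Of the meclizine peaks within 1 kb of a start, 8.60% held the AP-1 letters and 38.9% the GC box. Motif letters differ in GC themselves, so these shares and the GC bins are not separate observations, and a match is not evidence that a factor was bound.

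Distal peaks found with 1 compound only were about equally many in equal-sized lists, at 3833 with loxapine and 3677 with meclizine. Against the whole loxapine list, 2053 of the meclizine peaks still had no partner. Distal peaks of 1 compound were weak and narrow. In equal-sized lists their median widths were 405 bp with loxapine and 394 bp with meclizine, and the 2053 had 326 bp. On assembled chromosomes the loxapine-only peaks had a median GC content of 41.0% and the 3666 meclizine-only peaks of equal-sized lists 44.7%. The 2042 meclizine peaks without a partner in the whole loxapine list had 45.0%, and distal peaks in both lists 43.7%. Of the loxapine-only peaks, 46.4% lay in bodies of coding genes, and of the 2042, 47.6%. The strongest loxapine-only distal peak, at chr3:86461507-86462221, was in an intron of Lrba, a vesicle-trafficking gene, at percentile 85.0. The next were nearest Grin3a, an NMDA receptor subunit gene, at 80.3, Nxph1, a neurexin ligand gene, at 77.3, Adcyap1r1, the PACAP receptor gene, at 76.9 and Jak2, a cytokine receptor kinase gene, at 75.6, all between genes. All 5 were also present with cyproheptadine, 3 of the 5 with DKI and 2 of the 5 in Q7SST. The strongest meclizine-only distal peaks were intergenic, nearest Cstad at 80.3, Prlhr, a prolactin-releasing hormone receptor gene, at 73.7, B430218F22Rik at 71.8, Arid1b, a chromatin remodelling gene, at 69.5 and Ier5l at 69.1, and all 5 were also present in Q7SST, 3 with cyproheptadine and 3 with DKI.

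The cyproheptadine and DKI lists were then searched for the distal peaks present with loxapine or meclizine alone. To remove the effect of list length, the strongest 30758 peaks of the cyproheptadine and DKI lists were used. Of the 3822 loxapine-only distal peaks on assembled chromosomes, 19.9% (18.7% to 21.2%) were found with cyproheptadine, the other Group A compound, and 11.1% (10.2% to 12.2%) with DKI. Of the 3666 meclizine-only distal peaks, 9.49% (8.59% to 10.5%) were found with cyproheptadine and 18.3% (17.1% to 19.6%) with DKI, the other Group B compound. Of the 2042 without a partner in the whole loxapine list, the shares were lower, at 5.53% and 12.8%. In the whole Q7SST list, 26.9% of the 3822 and 30.8% of the 3666 were found, but that list held 38392 peaks and was not cut to the same size. Distal peaks that loxapine and meclizine shared were found about equally often in both, at 72.9% and 73.5%.

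**Figure D5:**
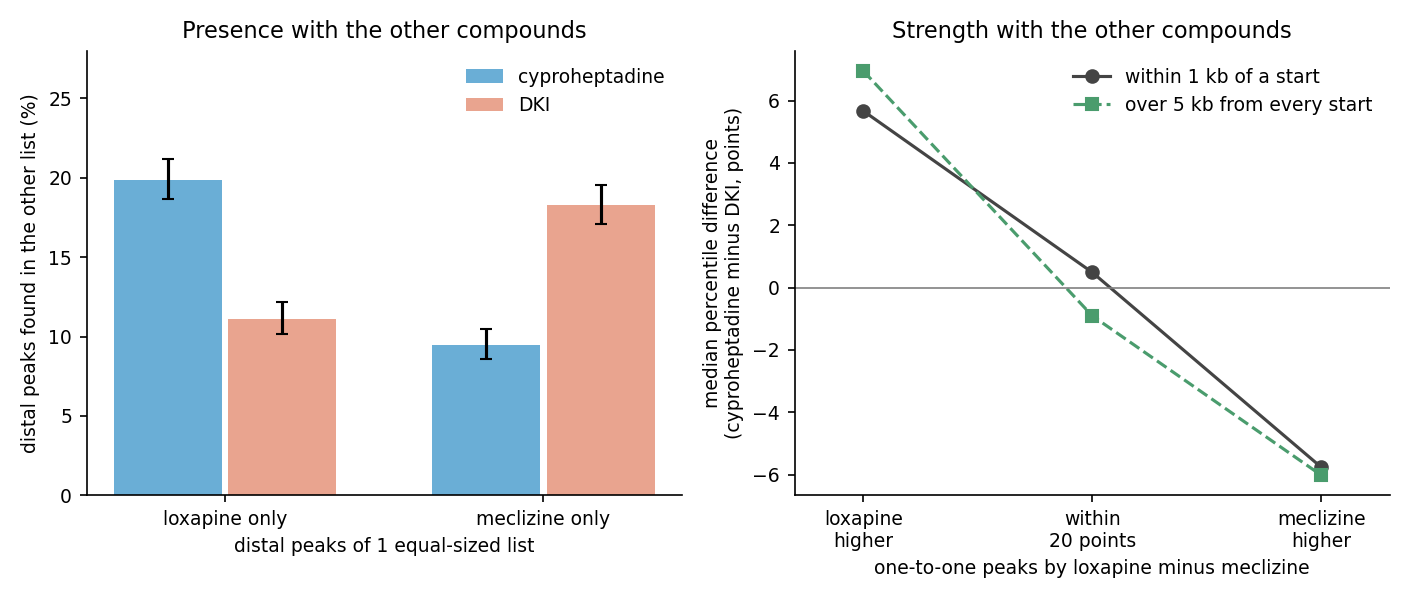
Left, share (%) of distal peaks of 1 equal-sized list without a partner in the other that were found with cyproheptadine (blue) or DKI (salmon), with 95% Wilson intervals as bars. Right, median percentile difference between cyproheptadine and DKI (points) at one-to-one peaks that were 20 points higher with loxapine, within 20 points, or 20 points higher with meclizine, near starts (black) and distal (green); the values ran from 5.67 to -5.76 near starts and from 6.95 to -6.02 at distal peaks.

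Strength was compared in the same way. At one-to-one peaks within 1 kb of a start that were 20 or more points higher with loxapine (306, or 2.29%), 205 were in both other lists, and cyproheptadine stood above DKI by a median of 5.67 points. At those 20 or more points higher with meclizine (972, or 7.27%), 679 were in both, and cyproheptadine stood below DKI by a median difference of -5.76 points. The distal peaks gave medians of 6.95 points over 1200 peaks and -6.02 points over 834, and peaks within 20 points gave 0.489 and -0.904. Over the 5 GC bins the median difference of cyproheptadine and DKI lay between -0.356 and 0.816. Each list came from 1 sample, so the compound and the sample cannot be told apart, and any preparation or sequencing shared within a group was not tested.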

How the data were processed

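H3K4me3 ChIP-Seq peak lists were analysed as deposited, 1 per condition. Chromatin was crosslinked and digested with micrococcal nuclease, and single-end reads were sequenced. The submitters' processing notes name Trimmomatic 0.36, Bowtie2, SAMtools 1.3 and MACS2, with build mm10. Each line of the deposited files gives a peak and the authors' whole-number score, whose scale, threshold, input control and pooling of replicates were not given in the sources used here. Scores were therefore compared only as percentiles within a list. Read depth behind the lists is unknown, and a score or a peak can be missing through depth or enrichment alone. All 21 chromosomes fitted GRCm38, and coordinates count from 1.

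Equal-sized lists held the 38577 strongest peaks, with ties broken by width and then position. Overlap needed 1 bp. Promoter peaks lay within 1 kb of a GENCODE vM21 protein-coding start, distal peaks over 5 kb from every start of any gene, and a difference was called at 20 percentile points. Each gene symbol was counted a single time, and a few genes are not reported here. GC and motifs were read from the central 300 bases of GRCm38.p6 (RefSeq), except that the GC alternative for promoter counts used whole meclizine peaks.

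Named genes were the 10 strongest promoters of 1 list with no other peak within 5 kb, the 10 largest percentile differences and 5 largest width differences in each direction, the 5 strongest distal peaks of each list, and members of 32 gene lists. The pair, the gene lists and the 9 marker lists were chosen with earlier results of these data known. With 1 list per condition, Wilson 95% intervals cover counting error only. Promoter calls were tested on simulated data with planted changes. Computation used pysam 0.24.0, pandas 2.3.3, numpy 2.4.6, scipy 1.17.1 and Python 3.11.15.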

Additional observations from a re-analysis of the deposited data

How the results depend on the processing

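No paired analysis was possible because there were no replicates to pair or leave out. The lists carry no read counts, so depth limits what an absent peak means, and every difference here is between 2 libraries. Under the first set of alternatives, 21 values stayed within counting error or 1.5 times the reported count and 24 moved beyond it. The order of the promoter counts past 20 points turned in whole lists and with percentiles among shared promoters, while the promoters marked with 1 compound only stayed more numerous with meclizine. Merging peaks within 1 kb, using one-to-one peaks alone and taking off the median difference of each GC bin were chosen after seeing the data, and 6 values stayed and 2 moved under them.

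In whole lists, 78.6% of loxapine and 91.5% of meclizine peaks were found, 189 promoters were marked with loxapine only and 287 with meclizine only, 321 and 246 were 20 points higher, 51.9% of loxapine peaks were distal, 7187 distal peaks were loxapine only, and 3 gene lists in place of 5 had a median 5 or more points from that of all promoters, with only keratins among both. Above the pooled median score of 49 the shares found were 84.7% and 86.3%, the width ratio 1.05, the distal shares 34.7% and 32.3%, the loxapine-only promoters 173 and the loxapine-only distal peaks 2279. Reciprocal overlap of 50% gave 74.5% both ways. A 5 kb window gave 237 loxapine-only promoters, and a peak over the start gave 1097 meclizine-only promoters and 71 promoters higher with loxapine. A distal limit of 1 kb gave 61.0% and 60.6%. Percentiles among shared promoters gave 949 and 855 promoters past 20 points. One-to-one promoter peaks alone gave 99 higher with loxapine and 565 with meclizine, and with GC medians removed the counts were 235 and 457.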
